A study of Mus musculus with 6 samples.

Results

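The variable, diversity and joining segments of the T cell receptor beta chain locus were taken as all features whose symbols start with Trbv, Trbd or Trbj. They number 51 of 32285 features, with 35 variable, 2 diversity and 14 joining segments, and all 51 lie on mouse chromosome 6 between 40891229 and 41558452 in GRCm38. The libraries are single-cell 3′ RNA-seq of kidney αβ T cells from male WT C57BL/6J mice aged 7 to 8 weeks, sorted on surface CD45 and TCRβ. Normal control mice gave 3 libraries (CD4, CD8 and double-negative, DN, which lack both co-receptors), and mice whose renal pedicles were both clamped for 30 min (ischemia-reperfusion, IR) gave another 3. The controls were normal mice, with no sham operation stated, creatinine was checked at 24 h in the IR mice, and the sources used here do not say how many mice went into a library. Each group is thus 1 library, so no comparison has a replicate check and no p-value is given. Every interval below is a 95% interval that covers counting error only.

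A functional beta chain gene is built in each developing T cell by joining a variable (V), a diversity (D) and a joining (J) segment, which are then transcribed and spliced to a constant (C) segment. The joining deletes the DNA between the chosen segments, so V segments on the 5′ side of the chosen V stay on the chromosome, and a cell normally makes a single beta chain. Joining segments of the Trbj1 cluster are usually spliced to Trbc1 and those of the Trbj2 cluster to Trbc2. Invariant natural killer T (NKT) cells of mice carry a fixed alpha chain, encoded by Trav11, with beta chains that chiefly use Trbv13-2, Trbv29 and Trbv1, called the invariant NKT segments below. Mucosal-associated invariant T (MAIT) cells, whose alpha chain uses Trav1, favour Trbv19 and members of the Trbv13 family. Klrb1c encodes the receptor NK1.1 and Zbtb16 encodes PLZF, the transcription factor of innate-like T cells.

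A 3′ library reads the end of a transcript that lies next to the poly(A) tail, whereas the V, D and J segments lie at the other end, ahead of the constant region. The segments were sparsely counted. After removal of low-quality barcodes, 48277 cells of 54039 barcodes remained, and they held 14983 Trbv UMIs (unique molecular identifiers, each standing for a captured transcript) and 2581 Trbj UMIs. The Trbv UMIs numbered 2906 in control CD4, 4060 in control CD8, 4888 in control DN, 1769 in IR CD4, 907 in IR CD8 and 453 in IR DN. The median depth per cell was 6627 to 8361 UMIs in the control libraries and 1451 to 2351 in the IR libraries. The control file headers carry Cell Ranger version 5.0.1 and those of the IR libraries 6.0.1, so condition, depth and software version cannot be told apart. The labels of the sort held, since Cd4 was at 145 and 210.4 CPM (counts scaled to 1000000 per library) in the CD4 libraries and at most 0.456 CPM elsewhere, and Cd8a was at 392 and 867 CPM in the CD8 libraries and at most 0.247 CPM elsewhere.

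The V segments on which the results turn are shown by the last 60 bases of their longest transcript in GENCODE M21 (GRCm38, plus strand), the end that is joined to D or J. Capitals mark the motif TGTGCN, the codon of the conserved cysteine and the codon after it, searched on the transcript strand. Of the 22 Trbv annotated as genes, 19 hold it in these 60 bases, and of the 13 annotated as pseudogenes 7 do. Trbv12-2 (6, 41118851 to 41119364) and Trbv13-2 (6, 41121396 to 41121832) are neighbours with 2031 bases between them. Trbv12-1 (6, 41113550 to 41114067) and Trbv13-1 (6, 41116007 to 41116468) form a like pair with 1939 bases between them.
Trbv13-2: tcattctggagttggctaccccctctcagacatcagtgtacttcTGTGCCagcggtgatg
Trbv13-1: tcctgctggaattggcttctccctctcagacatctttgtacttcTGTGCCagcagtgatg
Trbv12-2: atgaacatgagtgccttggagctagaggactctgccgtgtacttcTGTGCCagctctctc
Trbv12-1: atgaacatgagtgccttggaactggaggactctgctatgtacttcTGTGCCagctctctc
Trbv29: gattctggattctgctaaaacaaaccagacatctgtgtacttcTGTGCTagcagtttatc
Trbv1: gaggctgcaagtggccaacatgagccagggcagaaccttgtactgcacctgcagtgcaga
Trbv3: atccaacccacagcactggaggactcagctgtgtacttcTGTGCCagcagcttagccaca
Over whole transcripts, Trbv12-1 and Trbv12-2 were identical at 88.3% of 385 aligned bases and Trbv13-1 and Trbv13-2 at 87.1% of 340, while the neighbours Trbv12-2 and Trbv13-2 were identical at 52.1% of 336. In 32 of the 35 Trbv, no stretch of 91 bases, the length of the sequenced read, is shared with a transcript of another gene, and the 7 segments shown are among these 32. The exceptions are Trbv4 and Trbv5, which share 68.3% and 74.1% of their stretches with 5830405F06Rik, and Trbv8, which shares all of them with AC153851.1, so counts for these 3 are uncertain.

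Detection of V segments was low and moved with depth. A Trbv UMI was found in 24.7% of control CD4 cells, 30.9% of control CD8 cells and 38.1% of control DN cells (37.1 to 39.2), against 14.5%, 12.4% and 9.49% (8.61 to 10.4) of IR CD4, CD8 and DN cells. When every cell was thinned to 1000 UMIs, which left out 34 to 566 shallower cells per library, the shares were 4.05%, 5.86% and 6.41% in the control libraries and 6.54%, 7.12% and 6.67% in the IR libraries. At equal depth the control libraries were thus no longer the higher ones. Among barcodes with no Cd3d, Cd3e or Cd3g UMI and at least 2 UMIs of B cell, myeloid or erythroid markers, a Trbv UMI was found in 0 of 18 control barcodes, which allows a share of up to 16.7% by the limit of 3 counts and up to 18.5% by the exact interval. It was found in 2 of 116 such IR barcodes (1.72%, 0.209 to 6.09), at median depths of 2880 and 1601 UMIs. Positive cells held 1.14 to 1.44 Trbv UMIs each, and since UMIs of the same cell are not independent, the intervals of UMI shares are somewhat too narrow.

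Of the 35 Trbv, 25 had a UMI in at least 1 library, and the 10 at 0 in all 6 libraries are all annotated as pseudogenes. The other 3 pseudogenes were Trbv24 with 159 UMIs over all libraries, Trbv12-3 with 5 and Trbv22 with 2, and pseudogenes made up 0.662% to 1.87% of the Trbv UMIs of a library. Usage was most concentrated in the DN libraries, where the first 3 segments already reached 50% of Trbv UMIs, against 4 or 5 segments in the other libraries. The effective number of segments, the inverse of the summed squared shares, stood at 7.21 for control DN, at 5.28 for IR DN and at 9.47 to 11.8 in the other 4 libraries.

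Trbv12-2 was the leading segment of 5 libraries, with an interval that overlapped that of Trbv13-2 in control CD4, and Trbv3 led in control CD8. In control DN the leading segments were Trbv12-2 with 24.3% of Trbv UMIs (23.1 to 25.6), Trbv13-2 with 21.2% (20 to 22.3), Trbv29 with 10.6% (9.77 to 11.5) and Trbv1 with 10.1% (9.31 to 11). Control CD4 had the same 4 segments in front at lower shares, with Trbv12-2 at 16.4%, Trbv13-2 at 14.9%, Trbv29 at 8.12% and Trbv1 at 7.85%. In control CD8 Trbv3 held 23.9% (22.6 to 25.3), Trbv12-2 14.7%, Trbv2 6.70% and Trbv12-1 6.08%, while Trbv13-2 held 5.94%. The plot of segment shares shows control DN above the other control libraries at Trbv12-2, Trbv13-2, Trbv29 and Trbv1, IR DN above the other IR libraries at Trbv12-2 and Trbv29, and the CD8 libraries high at Trbv3 and Trbv12-1.

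**Figure D1:**
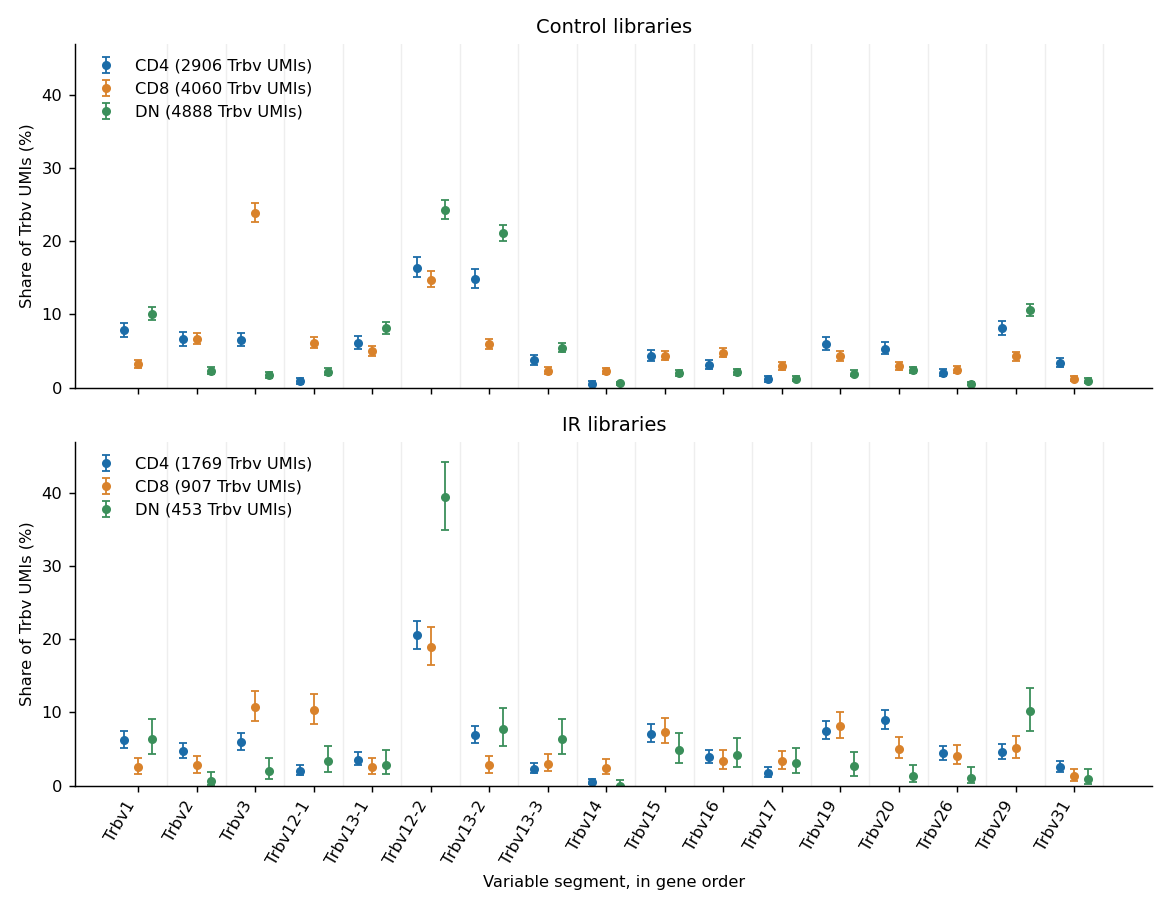
Share of all Trbv UMIs (%, vertical axis) held by each of the 17 variable segments with at least 2% in any library, in gene order, for the 3 control libraries (top) and the 3 IR libraries (bottom). Points are single libraries and bars 95% exact binomial intervals for counting error; Trbv3 stands at 23.9% in control CD8 and Trbv12-2 at 39.5% in IR DN.

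Against control CD4, control DN had higher shares of Trbv12-2, by 7.97 percentage points (6.14 to 9.75), Trbv13-2, by 6.25 points (4.51 to 7.96), Trbv29, by 2.50 points, Trbv1, by 2.30 points, and Trbv13-1, by 2.05 points. It had lower shares of Trbv3 (1.68% against 6.50%), Trbv2 (2.29% against 6.61%), Trbv19 (1.92% against 5.99%), Trbv20 (2.41% against 5.33%) and Trbv31 (0.941% against 3.37%). Of the 24 segments detected in these libraries, the interval of the difference excluded 0 for 7 that were higher and 11 that were lower in DN. Against control CD8, the higher segments were Trbv13-2, by 15.2 points (13.9 to 16.6), Trbv12-2, by 9.62 points, Trbv1, by 6.92 points, Trbv29, by 6.36 points, and Trbv13-3, by 3.19 points. The largest lower share in that comparison was that of Trbv3, at -22.2 points (-23.6 to -20.9), followed by Trbv2, Trbv12-1, Trbv16 and Trbv15 at -4.41 to -2.38 points.

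The IR libraries had the same order of subsets for some of these segments and not for others. IR DN exceeded IR CD4 in Trbv12-2 by 18.9 points (14.1 to 23.9), in Trbv29 by 5.58 points and in Trbv13-3 by 4.08 points, and it exceeded IR CD8 in Trbv12-2 by 20.6 points, in Trbv13-2 by 4.97 points, in Trbv29 by 4.97 points, in Trbv1 by 3.87 points and in Trbv13-3 by 3.42 points. Trbv20 was lower in IR DN (1.32%) than in IR CD4 (8.99%) and IR CD8 (5.07%), and Trbv19 was lower in IR DN (2.65%) than in IR CD4 (7.52%) and IR CD8 (8.16%). Trbv3 was at 1.99% in IR DN, 5.94% in IR CD4 and 10.8% in IR CD8 and Trbv26 at 1.10%, 4.41% and 4.08%. For Trbv17 (3.09% against 1.75%) and Trbv12-1 (3.31% against 2.04%) the difference between IR DN and IR CD4 had an interval that held 0. The same was true of 3 segments that were higher in control DN than in control CD4, namely Trbv13-2 (7.73% against 6.90%, 0.830 points, -1.64 to 3.86), Trbv1 (6.40% against 6.27%, 0.127 points) and Trbv13-1, whose order was the other way (2.87% against 3.56%, -0.692 points).

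The 3 invariant NKT segments together held 41.9% of Trbv UMIs in control DN (2049 of 4888, 40.5 to 43.3), 30.9% in control CD4 (29.2 to 32.6) and 13.4% in control CD8 (12.4 to 14.5). In the IR libraries they held 24.3% in DN (110 of 453, 20.4 to 28.5), 17.8% in CD4 (16.0 to 19.6) and 10.5% in CD8 (8.56 to 12.7). The subsets thus stood in the order DN, CD4, CD8 in both conditions, with intervals that did not overlap between neighbours, and each IR library was below its control library, with overlapping intervals in CD8. Markers of some other cells were also higher in the IR libraries, with 2 erythroid genes summing to 18.4 to 25.3 CPM against 0.855 to 1.01 CPM, 4 B cell genes to 11.4 to 25.7 CPM against 1.91 to 11.8 CPM and 6 myeloid genes to 160.1 to 261 CPM against 110.1 to 123 CPM. No erythroid marker was at 0, and at most 2 markers of the other lists were at 0 in a library. The 2 endothelial genes summed to 103 CPM in IR CD4 against 129.5 CPM in control CD4, 80.7 against 99.9 CPM in CD8 and 50 against 45.2 CPM in DN, and the 3 tubule genes to at most 7.23 CPM. Their part in the differences between IR and control was not tested. When Trbv12-2 was counted with them, a choice made after the values were seen, control DN stood at 66.3% (64.9 to 67.6) and IR DN at 63.8% (59.2 to 68.2), which overlap. By the same count CD4 stood at 47.2% (45.4 to 49.1) in control and 38.3% (36.1 to 40.6) in IR, which do not overlap, and CD8 at 28.2% and 29.4%, which do. The segments favoured by MAIT cells (Trbv19, Trbv13-2 and Trbv13-3) held 28.6% in control DN, 24.6% in control CD4, 12.5% in control CD8 and 13.9% to 16.8% in the IR libraries, but Trbv13-2 is in both lists. Trav1 itself had 1 to 20 UMIs per library.

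In CD4 and DN the largest differences between IR and control lay in the neighbours Trbv12-2 and Trbv13-2, and in CD8 in Trbv3. Trbv13-2 was lower in all 3 IR libraries, at 6.90% against 14.9% in CD4, 2.76% against 5.94% in CD8 and 7.73% against 21.2% in DN, where the difference was -13.4 points (-15.8 to -10.4). Trbv12-2 was higher in all 3, at 20.6% against 16.4% in CD4, 19% against 14.7% in CD8 and 39.5% against 24.3% in DN, where the difference was 15.2 points (10.6 to 19.9). Summed, the neighbours held 27.5% against 31.3% in CD4, 21.7% against 20.7% in CD8 and 47.2% against 45.5% in DN, so in CD8 and DN their sum differed by less than the counting error, and in CD4 by about as much as Trbv12-2 alone. Of the UMIs of the pair, Trbv13-2 made up 47.6% (44.3 to 50.9) in CD4, 28.7% in CD8 and 46.5% (44.4 to 48.6) in DN of the control mice, against 25.1% (21.3 to 29.2), 12.7% and 16.4% (11.7 to 22) in the same subsets after IR.

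**Figure D2:**
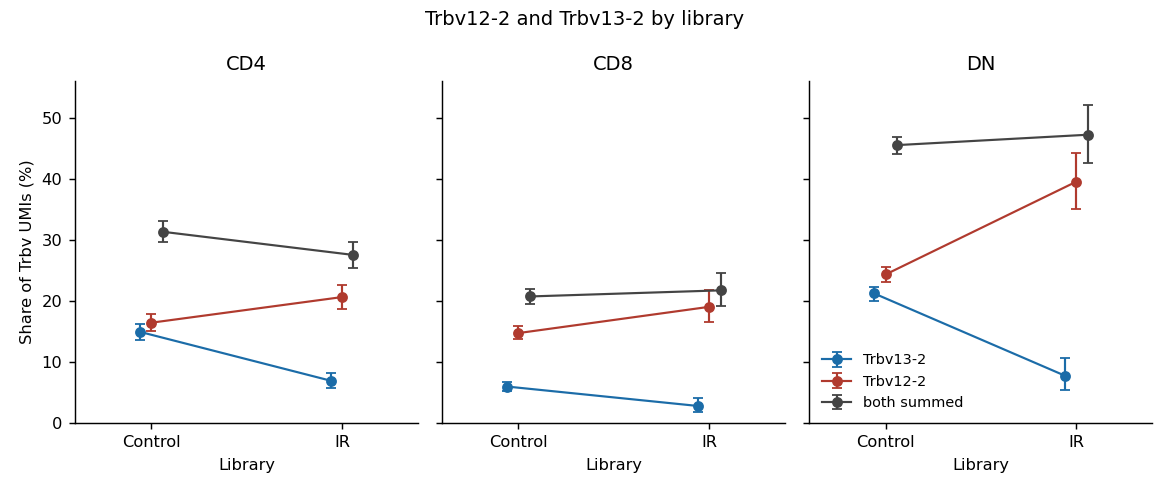
Share of all Trbv UMIs (%, vertical axis) of Trbv13-2, of Trbv12-2 and of both summed in the control and IR library of each subset. Points are single libraries, lines join the 2 libraries of a subset and bars are 95% exact binomial intervals for counting error; in DN the sum is 45.5% and 47.2% while Trbv13-2 is at 21.2% and 7.73%.

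The similar pair Trbv12-1 and Trbv13-1 moved in the same sense. Trbv13-1 made up 87.6% of the UMIs of that pair in control CD4 against 63.6% in IR CD4, 44.9% against 19.7% in CD8 and 79% against 46.4% (27.5 to 66.1) in DN. In both pairs it was the segment on the 3′ side whose part was smaller in IR. In shares of all Trbv UMIs, Trbv13-1 was at 8.14% in control DN and 2.87% in IR DN, and Trbv12-1 at 6.08% in control CD8 and 10.4% in IR CD8. Depth, condition and software version differ together between the libraries, and their part in these ratios cannot be told apart. At 1000 UMIs per cell the Trbv13-2 difference in DN was -15.9 points (-20.4 to -10.8).

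Several other segments differed between IR and control. Trbv15 was higher in IR in all 3 subsets (7.07% against 4.30% in CD4, 7.39% against 4.38% in CD8 and 4.86% against 2.00% in DN), each with an interval of the difference above 0. Trbv20 was higher in IR CD4 (8.99% against 5.33%) and IR CD8 (5.07% against 2.91%), and in DN it stood at 1.32% against 2.41% with an interval that held 0. Trbv19 was higher in IR CD8 (8.16% against 4.29%) and Trbv26 in IR CD4 (4.41% against 2.03%). In IR CD4, Trbv19 was at 7.52% against 5.99%, but this order turned at 1000 UMIs per cell, where the difference was -0.890 points (-4.55 to 2.37). Trbv3 had the largest difference in CD8, at 10.8% in IR against 23.9% in control (-13.1 points, -15.4 to -10.6). Trbv2 was lower in IR in CD4 (4.75% against 6.61%), CD8 (2.76% against 6.70%) and DN (0.662% against 2.29%), Trbv29 in CD4 (4.58% against 8.12%) and Trbv1 in DN (6.40% against 10.1%). Trbv2 in IR DN rested on 3 UMIs, and with cells counted in place of UMIs its difference had an interval that held 0 in DN (-0.902 points, -1.63 to 0.641) and in CD4 (-1.24 points, -2.74 to 0.342). Trbv29 in DN, at 10.2% in IR and 10.6% in control, did not differ beyond the counting error. In DN, Trbv16 (4.19% against 2.13%) and Trbv17 (3.09% against 1.21%) were also higher in IR.

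The whole profile of V usage was compared by the share of UMIs that would have to move from some segments to others to turn the profile of a library into that of another. This distance was 20.6 points between control and IR CD4, 24.8 between the CD8 libraries and 26.8 between the DN libraries. Between subsets of the control libraries it was 24.5 for CD4 and DN, 28.9 for CD4 and CD8 and 44.7 for CD8 and DN, and between those of the IR libraries 32.6, 19.8 and 39.0 in the same order. When each of the 2 neighbour pairs was counted as a single segment, a choice made after the values were seen, the distances between conditions were 15.3 for CD4, 19.2 for CD8 and 12.3 for DN. The DN value was the lowest of all 15 pairs of libraries, while IR CD4 and IR CD8 stood 18.8 apart, below the CD8 value. Counting segments together can only lower a distance or leave it unchanged. Small libraries have larger distances by counting error alone.

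Klrb1c was detected in 44.7% of control DN cells, 11.6% of control CD4 cells and 1.56% of control CD8 cells, and in 18.4%, 7.57% and 0.762% of IR DN, CD4 and CD8 cells at their lower depth. In control CD4, cells with a Klrb1c UMI had a different V usage from those without. The invariant NKT segments held 50.6% of their Trbv UMIs (204 of 403, 45.6 to 55.6) against 27.7% in Klrb1c-negative cells (693 of 2503, 25.9 to 29.5), a difference of 22.9 points (17.8 to 28.1). Trbv13-2 was at 25.8% against 13.1%, Trbv29 at 14.6% against 7.07%, Trbv13-1 at 10.7% against 5.35% and Trbv13-3 at 6.20% against 3.36%. The order of Trbv13-3 turned at 1000 UMIs per cell (-3.78 points, -6.25 to 16.7). Trbv1 was at 10.2% against 7.47%, with an interval that held 0. Trbv3 was at 0.993% against 7.39% and Trbv2 at 1.24% against 7.47%, and Trbv19, Trbv20 and Trbv15 were lower as well, by 4.07, 3.89 and 3.27 points.

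In control DN the order was the other way. The invariant NKT segments held 39.0% of Trbv UMIs in Klrb1c-positive cells (873 of 2241, 36.9 to 41.0) and 44.4% in Klrb1c-negative cells (1176 of 2647, 42.5 to 46.3), a difference of -5.47 points (-8.23 to -2.70). Trbv13-2 carried most of it, at 18.2% against 23.6%, with Trbv29 at 9.86% against 11.3% and Trbv1 at 10.9% against 9.52%. Trbv12-1 was higher in the positive cells (3.03% against 1.44%), as was Trbv17 (1.65% against 0.831%), whose order turned at 1000 UMIs per cell (-0.988 points, -2.29 to 3.47). At 1000 UMIs per cell the difference of the invariant NKT segments was 1.48 points with an interval from -9.55 to 13.0, which holds both directions and the value at full depth, since few Trbv UMIs remain. The median depths of the positive and negative cells were 8599 and 8176.5 UMIs.

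In the IR libraries the classes held few Trbv UMIs. The invariant NKT segments were at 27.4% of 113 UMIs in Klrb1c-positive and 17.1% of 1656 UMIs in Klrb1c-negative IR CD4 cells, a difference of 10.3 points (2.72 to 19.4). Trbv12-2 stood further apart in that library, at 44.2% against 19% (25.3 points, 16.3 to 34.7). In IR DN the invariant NKT segments were at 27% of 115 UMIs against 23.4% of 338 UMIs, a difference of 3.58 points (-5.12 to 13.3) that did not exceed the counting error. The CD8 libraries held 71 and 7 Trbv UMIs in Klrb1c-positive cells, and the shares of the invariant NKT segments there were 16.9% (9.05 to 27.7) and 14.3% (0.361 to 57.9).

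Zbtb16-positive cells had the higher share in both control CD4 and control DN. In control CD4 the invariant NKT segments held 50.8% of Trbv UMIs in Zbtb16-positive cells and 20.5% in Zbtb16-negative cells (30.3 points, 26.7 to 33.9), with Trbv29 at 15.4% against 4.30%, Trbv13-2 at 25.1% against 9.54% and Trbv12-2 at 21.2% against 13.8%. In control DN the values were 46.0% and 35.7% (10.3 points, 7.49 to 13.1), with Trbv29 at 12.9% against 7.14% and Trbv13-2 at 22.5% against 19.1%. Within control DN, Klrb1c-positive cells without Zbtb16 had the lowest share, at 32.7% (29.7 to 35.8), just overlapping the cells with neither (38.6%, 35.5 to 41.7), and Klrb1c-negative cells with Zbtb16 the highest, at 47.8% (45.4 to 50.2). In control CD4, cells with neither transcript stood at 19.5% (17.7 to 21.4), and the 3 classes with either at 40% to 53.7%, as the plot by Klrb1c and Zbtb16 shows. Cells with a Trav11 or Trav11d UMI numbered 175 in control CD4, where the share was 46.4% of 69 Trbv UMIs (34.3 to 58.8) against 30.5% in the other cells. They numbered 270 in control DN, where the share was 49.6% of 127 (40.6 to 58.6) against 41.7%, a difference of 7.89 points with an interval that held 0 (-0.778 to 16.6). The summed level of 4 NK cell markers, which include Klrb1c itself, was 451 CPM in control DN, 375 CPM in IR DN and 65.2 to 99.6 CPM elsewhere, and that of 5 gamma delta T cell markers 526, 334 and 22.2 to 136 CPM, with no gene of either list at 0 in any library. Trdc, the delta chain constant gene of the second list, had the opposite order, at 2.53 CPM in control DN and 1.99 CPM in IR DN against 3.20 to 5.59 CPM elsewhere, and the sort required surface TCRβ. The part of NK and gamma delta T cells in the Klrb1c comparison was not tested.

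**Figure D3:**
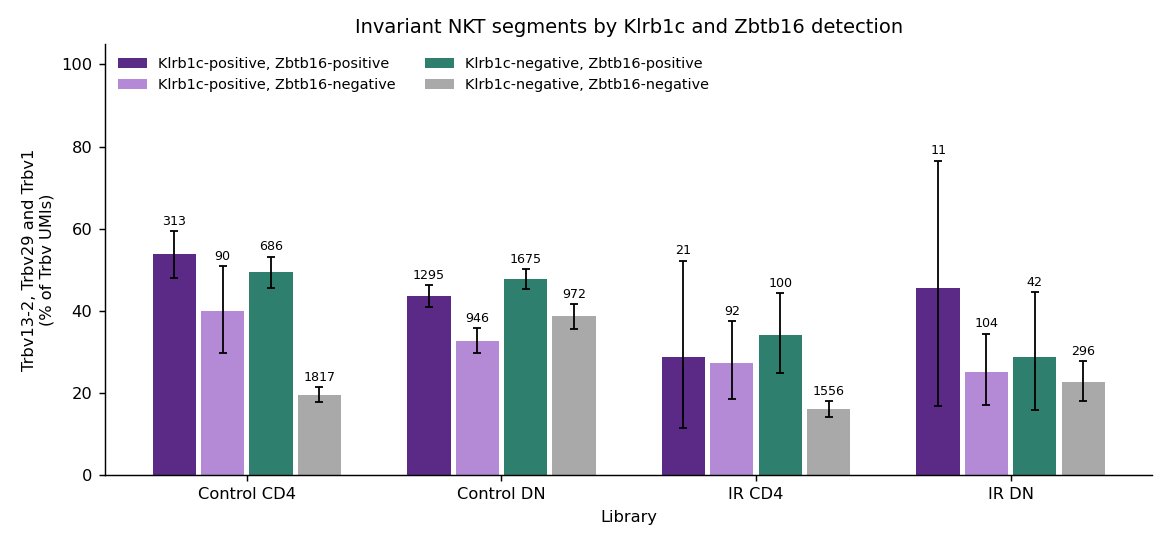
Share of Trbv UMIs (%, vertical axis) held by Trbv13-2, Trbv29 and Trbv1 in cells with and without a UMI of Klrb1c and of Zbtb16, in the CD4 and DN libraries of both conditions. Bars are single libraries, whiskers 95% exact binomial intervals for counting error, and the number above each bar is its Trbv UMI count; control CD4 cells with neither transcript stand at 19.5%.

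UMIs of a single V segment were found in 381 to 2927 cells per library and those of several segments in 12 to 473 cells. Of the cells with at least 2 Trbv UMIs, which number 53 to 1047 per library, 54.8% (control DN) to 77.8% (IR CD8) showed a single segment. Cells with several segments made up 8.78% to 13.9% of positive cells in the control libraries and 2.75% to 5.69% in the IR libraries. At 1000 UMIs per cell these shares were 0.879% to 1.89% and 0.677% to 1.98%, so the gap between conditions was not seen at equal depth. Trbv12-2 with Trbv13-2 was the most frequent pair in all 6 libraries, in 202 control DN cells, 58 control CD4 cells, 44 control CD8 cells and 13, 4 and 5 IR CD4, CD8 and DN cells. The next pair in control DN, Trbv12-2 with Trbv13-3, was found in 21 cells. A Trbv12-2 UMI was present in 22.7% of the 890 control DN cells with Trbv13-2 (20 to 25.6), 14.4% of the 402 in control CD4 and 21.1% of the 209 in control CD8. In contrast, Trbv12-1 was present in 0.631% of the 317 control DN cells with Trbv13-1 and in 1.82% of the 165 in control CD8.

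The cells that held Trbv12-2 beside another segment were spread unevenly along the locus. In control DN a Trbv12-2 UMI was found in 3.07% of cells with a segment on its 5′ side (2.05 to 4.41) and in 7.00% of cells with a segment from Trbv12-3 to Trbv30 on its 3′ side (5.52 to 8.74). The values were 1.32% and 4.15% in control CD4 and 2.48% and 6.02% in control CD8, with intervals that did not overlap in either library. In IR CD4 they were 1.80% (0.726 to 3.67) and 2.56% (1.5 to 4.07), which overlap. This grouping by side was made after the values of single segments were seen. At 1000 UMIs per cell, 0 to 4 cells per library held both Trbv12-2 and Trbv13-2.

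**Figure D4:**
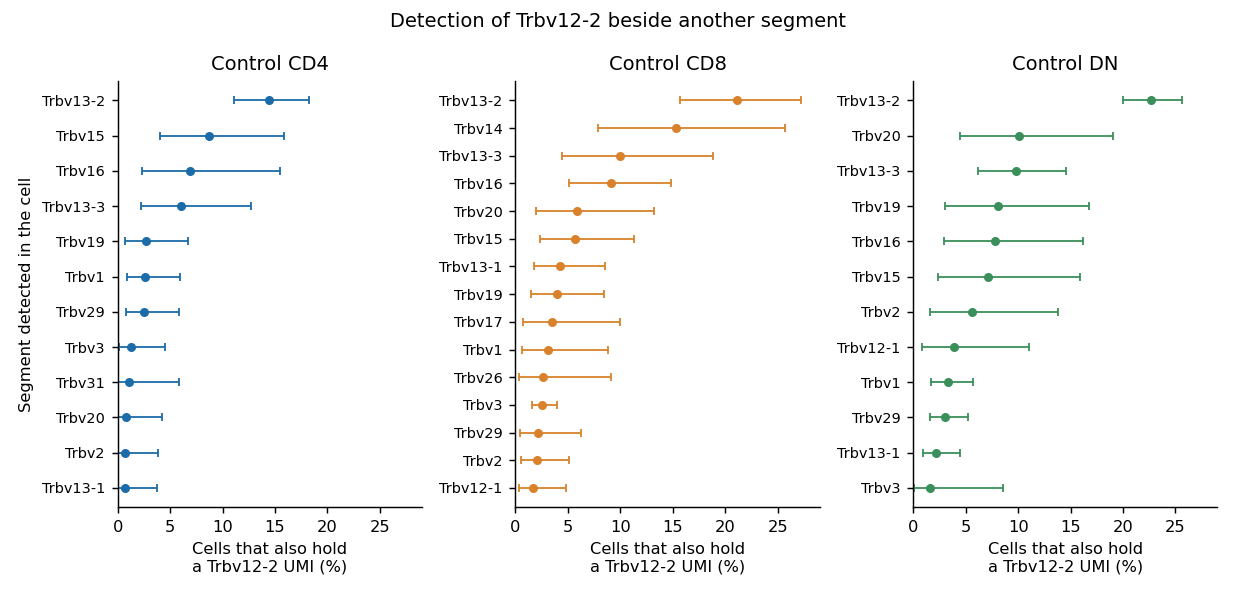
Share of cells (%, horizontal axis) with a UMI of the named segment that also hold a Trbv12-2 UMI, for segments found in at least 50 cells of each control library. Points are single libraries and bars 95% exact binomial intervals for counting error; Trbv13-2 is at the top of each panel, at 14.4%, 21.1% and 22.7%.

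Trbd1 and Trbd2 had 0 UMIs in all 6 libraries, with or without the cell filters. A count of 0 allows up to 3 UMIs per library, or 0.0493 to 0.664 CPM. These segments are 12 and 14 bases long, far shorter than a read, and are shown whole for that reason, with the joining segment that was counted most and the Trbj1 segment counted most in the control libraries. Capitals in the joining segments mark the phenylalanine and glycine motif (TTTGG or TTCGG, then any 4 bases, then GG), which was searched on the transcript strand and found in 11 of the 14 Trbj.
Trbd1: gggacagggggc
Trbd2: gggactgggggggc
Trbj2-7: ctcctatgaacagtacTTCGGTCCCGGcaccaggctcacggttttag
Trbj1-2: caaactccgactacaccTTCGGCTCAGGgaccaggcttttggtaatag

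Trbj2-7 (6, 41543810 to 41543856), the last joining segment before Trbc2, held 74.5% of the 874 Trbj UMIs of control CD4 (71.5 to 77.3), 70.5% of the 842 of control CD8 and 57.9% of the 611 of control DN. In the IR libraries it held 41.8% of 153 in CD4, 23.4% of 64 in CD8 (13.8 to 35.7) and 56.8% of 37 in DN (39.5 to 72.9). Trbj1-2 followed in the control libraries with 6.06%, 8.43% and 12.6%. The other Trbj each held at most 4.58% in the control libraries, and Trbj1-7 had 1 UMI in all. Trbj1-1 to Trbj1-6, Trbj2-1, Trbj2-4, Trbj2-5 and Trbj2-6 reached 5% in at least 1 IR library, on at most 12 UMIs each. Trbj2-6, annotated as a pseudogene, had 20, 25 and 21 UMIs in the control libraries and 8, 2 and 0 in the IR libraries.

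The joining segments were also set against the counts of their constant segment. Per 10000 Trbc2 UMIs, Trbj2-7 alone had 72.9 UMIs in control CD4 (67.4 to 78.7), 62.3 in control CD8 and 33.8 in control DN (30.4 to 37.5). In the IR libraries it had 17.3 in CD4 (13.3 to 22.1), 9.69 in CD8 and 27.3 in DN (16.9 to 41.7). The other Trbj2 segments together had 8.40 to 8.84 per 10000 Trbc2 UMIs in the control libraries and 7.80 to 11 in the IR libraries. Trbj1 segments had 30.6 to 33.5 per 10000 Trbc1 UMIs in the control libraries and 35.7 to 57.1 in the IR libraries, and in CD8 the interval in IR (39.1 to 80.6) lay above that in control (26.1 to 35.7). For Trbj2-7 the intervals of control and IR overlapped in DN and not in CD4 or CD8. Control DN stood below the other control libraries for Trbj2-7, while its Trbj1 rate had an interval that overlapped theirs.

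The joining clusters were compared with the constant segment that the cell expressed. In control CD4 cells with more Trbc1 than Trbc2 UMIs, Trbj1 made up 33.8% of Trbj UMIs (27.6 to 40.4), against 10.2% in cells with more Trbc2 (7.92 to 12.9). Without Trbj2-7 these shares were 77.6% (68.0 to 85.4) and 54.8% (45.2 to 64.1). They were 79.2% and 53.3% in control CD8 and 72.2% (63.0 to 80.1) and 59.6% (50.8 to 67.9) in control DN. Trbj1 UMIs were thus more frequent in the cells with more Trbc1, but neither class was free of the other cluster.

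The constant segments themselves were counted far more often than the V segments, with 2.20 to 3.11 Trbv UMIs per 100 Trbc UMIs in the control libraries and 3.54 to 4.32 in the IR libraries. Trbc1 made up 32.5% to 36.1% of the Trbc UMIs in the control libraries and 26.1% to 26.7% in the IR libraries. The use of the constant segment differed between V segments, most widely in control CD8. Of the 717 cells with a Trbv3 UMI and unequal constant counts, 59.7% had more Trbc1 than Trbc2 (56 to 63.3), against 32.4% of all control CD8 cells. The other 15 segments with at least 50 such cells lay between 14.3% for Trbv17 and 41.3% for Trbv26. In control CD4 and control DN, Trbv3 cells stood at 21.1% (14.9 to 28.4) and 22.2% (12.7 to 34.5), and in IR CD8 at 38.7% (27.6 to 50.6) against 20.4% of all cells. Trbv1 cells had more Trbc1 than the library as a whole in control DN (40.1%, 35.0 to 45.3, against 28.2%), control CD4 (38.3%, 31.5 to 45.6, against 28.3%) and IR CD4 (35.6%, 25.7 to 46.3, against 19.5%), while in control CD8 the interval (41.1%, 31.1 to 51.6) held the 32.4% of all cells.

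**Figure D5:**
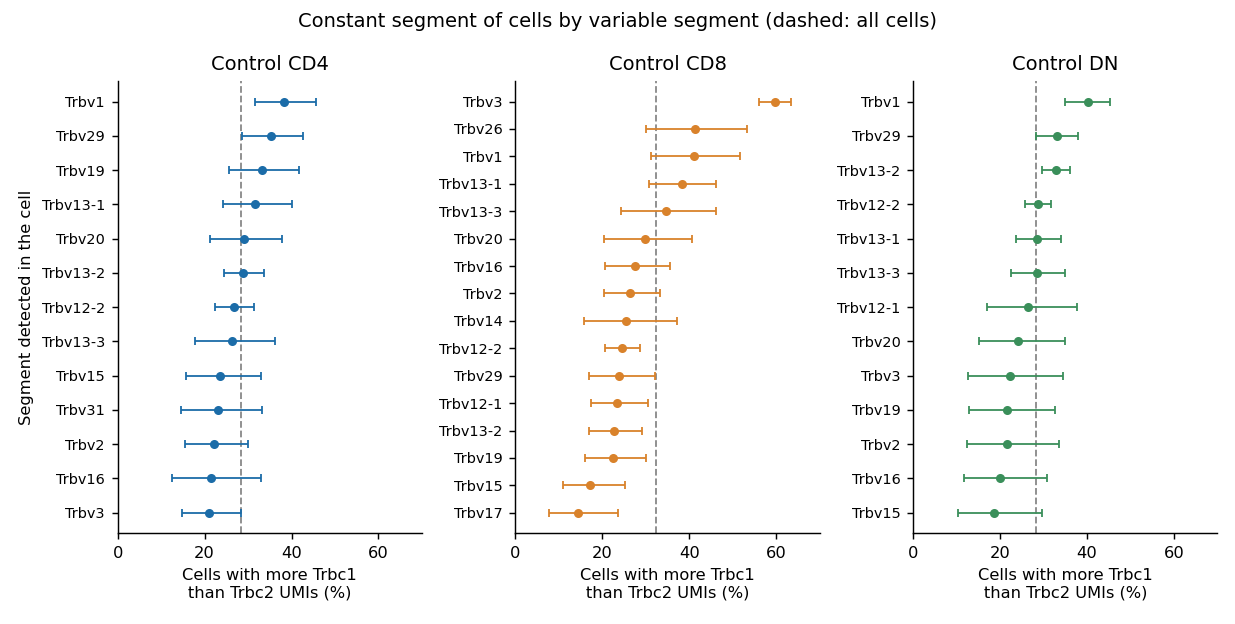
Share of cells (%, horizontal axis) with more Trbc1 than Trbc2 UMIs among cells with a UMI of the named variable segment, for segments with at least 50 such cells in each control library; the dashed line marks all cells of the library. Points are single libraries and bars 95% exact binomial intervals for counting error; Trbv3 in control CD8 is at 59.7% beside 32.4% for all cells.

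The Trbv3 cells of control CD8 also shared an alpha segment more often than others. Of the 284 that held a Trav UMI, 71 held Trav6-7-dv9 (25%, 20.1 to 30.5), against 38 of 726 cells with other Trbv segments (5.23%). The partner was named because it led among these cells, so this excess is a description. Trav6-7-dv9 also led among the Trbv26 cells of control CD8, in 8 of 34 (23.5%, 10.7 to 41.2) against 10.3% of other Trbv cells. The Trbv3 cells with Trav6-7-dv9 had more Trbc1 in 72.7% of 66 cells (60.4 to 83.0), and those with another Trav alone in 63.0% of 208 (56 to 69.6). Leading partners in control CD8 were Trav16n for Trbv13-2 (27 of 84 cells, 32.1%, against 10.6% of other Trbv cells), Trav13n-4 for Trbv29 (10 of 45, 22.2% against 1.45%) and Trav12-2 for Trbv2 (14 of 74, 18.9% against 2.35%). In control CD4, Trav11 led for Trbv13-2, in 17 of 90 cells (18.9%, 11.4 to 28.5, against 7.58%, 5.39 to 10.3). In control DN it led in 29 of 138 cells (21%, 14.5 to 28.8, against 15.6%, 12.2 to 19.5), with intervals that overlap. Trav11 also led for Trbv1, Trbv12-2, Trbv13-1 and Trbv29 in both libraries, among others, but not for Trbv3 or Trbv19. Trav11 as leading partner was thus not particular to Trbv13-2. Joined sequences of single cells were not analysed here, so shared segments do not show shared clones.

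On the scale of CPM, most segments were too low to be compared. In control, 4 of the 51 segments reached 10 CPM in a DN, CD4 or CD8 library, and a lower call in DN required at least 10 CPM in both other subsets. By this rule 1 of them, Trbj2-7, was called (12.9 CPM in CD4, 13.0 CPM in CD8 and 5.82 CPM in DN), and this call was lost when the removed features were kept in the totals. Trbv3 was also over 2-fold lower in control DN (1.35 CPM) than in CD4 (3.74 CPM) and CD8 (21.3 CPM), but it was not called, since its level in CD4 was below the minimum. Over all features 1.75% were called by this rule in control and 2.91% in IR, where none of the 7 segments tested was called. Between IR and control, 3 of 3 segments tested were at least 2-fold apart in CD4, 4 of 6 in CD8 and 2 of 3 in DN, against 22.7%, 25.4% and 19.7% of all features tested. Trbv12-2 was higher in IR CD4 (23.3 against 9.41 CPM) and IR DN (39.6 against 19.6 CPM), and Trbv20 in IR CD4 (10.2 against 3.06 CPM). The call of Trbv12-2 in DN, at 2.03-fold, was lost with TMM scaling (1.82-fold), with the removed features in the totals (1.80-fold) and without cell filters (1.99-fold). In IR CD8, Trbv12-1 (14.3 against 5.42 CPM), Trbv15 (10.2 against 3.90 CPM) and Trbv19 (11.2 against 3.82 CPM) were higher. Trbj2-7 was lower in IR CD4 (4.10 against 12.9 CPM) and IR CD8 (2.28 against 13.0 CPM), and Trbv13-2 in IR DN (7.75 against 17 CPM). The minimum passes a segment on its higher level alone and few segments were tested, so nothing is read from these counts.

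Of 11 genes of receptor assembly and signalling, 7 reached 10 CPM, and the only 1 at least 2-fold apart in any of the 5 comparisons was Cd247, which encodes the zeta signalling chain, at 119 CPM in IR DN against 276 CPM in control DN, a comparison in which 19.7% of all features tested were called. Trac lay between 725 and 972 CPM, Trbc2 between 1704 and 2366 CPM and Cd3g between 1287 and 1534 CPM. Rag1 and Rag2, which encode the recombinase, had 0 UMIs in all 6 libraries. Dntt, which encodes the enzyme that adds untemplated bases at the joints, had 3 to 43 UMIs per library (0.132 to 0.943 CPM). Ptcra, which encodes the pre-receptor alpha chain, was below the minimum at 0.652 to 1.10 CPM in the control libraries and 1.98 to 6.20 CPM in the IR libraries, with intervals that did not overlap within a subset.

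Some barcodes occurred in more than 1 library, 74 over the pairs of control libraries, 316 over the pairs of IR libraries and 159 over pairs across conditions. Trbv UMIs were present on both sides for 4, 0 and 7 of these, and a segment was shared in 1 of the 7. Leaving out shared barcodes kept the share of the invariant NKT segments at 41.9% in control DN and 24.2% in IR DN.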

How the data were processed

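Single-cell counts of 6 libraries were analysed, deposited by the authors as raw UMI counts per gene and barcode from Cell Ranger on mm10. The submitters' notes name version 6.0.1 and the control file headers 5.0.1. Barcodes over 20% mitochondrial UMIs or in the top 5% by UMIs of their library and those under 500 features were removed, the cuts that the study states. They left fewer cells than the study states, and its removal of contaminating clusters was not repeated, so the cells differ from the study's. The top 5% served as the guard against doublets, and no doublet caller was run. CPM used totals without 104 mitochondrial, ribosomal and Malat1 features. Shares carry exact Clopper-Pearson intervals, differences Newcombe intervals and sums exact Poisson intervals, all at 95%. No test was made, since each group is 1 library. Calls needed at least 10 CPM and 2-fold. Positions, biotypes and sequences came from GENCODE M21, and 32158 of 32285 feature IDs matched. Named V segments held at least 2% of Trbv UMIs in a library or were among the 5 largest differences in each direction of a comparison (for Klrb1c, in libraries with at least 100 positive cells holding a Trbv UMI), and joining segments were named from 5% of Trbj UMIs. Shared barcodes are counted over pairs of libraries. The neighbour pairs, co-detection, partner and constant segment comparisons were chosen after values were seen, as were other segments named. The members, lists and classes were chosen with earlier results of these data known. Alternatives changed the cell filters, shared barcodes, depth, counting unit, scaling and minimum. Python 3.11.15, scipy 1.17.1, edgeR 4.0.16 (TMM only) and Biopython 1.88 were used.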

Additional observations from a re-analysis of the deposited data

Results flagged for a closer look

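Contrasts between cells with and without a Klrb1c UMI pointed in opposite directions in control CD4 and control DN. For the invariant NKT segments the difference was 22.9 percentage points in control CD4 and -5.47 points in control DN. For Trbv13-2 alone it was 12.7 points (8.40 to 17.3) and -5.44 points (-7.71 to -3.16). For Trbv26 it was -1.78 points in control CD4 and 0.539 points (0.132 to 1.02) in control DN. The difference between the 2 libraries was not tested, because each is a single library. At 1000 UMIs per cell the invariant NKT difference in control DN was 1.48 points (-9.55 to 13.0), an interval that holds both directions and the value at full depth.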

How the results depend on the processing

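The shares of the invariant NKT segments in control DN (41.9%) and IR DN (24.3%) stayed within their counting intervals under 7 other settings, at 41.9% to 43.1% and 21.8% to 25.3%. Counting Trbv12-2 with Trbv13-2, an alternative chosen after seeing the data, gave 66.3% and 63.8%. The Klrb1c difference in control DN kept its direction except at 1000 UMIs per cell (1.48 points). The one in IR DN lay within its interval throughout, at -2.76 to 6.19 points. The number of segments called in control DN was 1, and it became 2 without shared barcodes and at 1000 UMIs, 0 with the removed features in the totals and with a minimum of 50 CPM, and 8 without a minimum. The number called between IR and control DN was 2, and it became 1 without cell filters, with TMM scaling and with the removed features in the totals, 0 with a minimum of 50 CPM and 20 without a minimum. Over 798 values of the named share differences, 764 stayed within the counting interval, 31 moved beyond it without turning a direction whose interval excluded 0, and 3 such directions turned, all at 1000 UMIs: Trbv19 between IR and control CD4 (-0.890 points), and by Klrb1c Trbv13-3 in control CD4 (-3.78 points) and Trbv17 in control DN (-0.988 points). Fewer UMIs remained at that depth, and no cause beyond this was tested. Each group holds a single replicate, numbered 1, and no label ties libraries to the same mice, so no paired analysis was made. A fit of IR against control with the 3 subsets as blocks was not run, since subsets are different cell types and not replicates. The fewest Trbv UMIs, 453, were held by IR DN.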
